A study of Caenorhabditis elegans with 2 samples.

Results

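The TRPV channel genes of Caenorhabditis elegans, osm-9 and its relatives ocr-1, ocr-2, ocr-3 and ocr-4, were examined in a genome-wide map of where the transcription factor HLH-4 binds. The 5 genes were taken by name from the 19973 protein-coding genes on the 6 chromosomes of the map. For each gene, every region whose summit lay in the gene body or within 5000 bp upstream of the gene start was collected. This gave 24 of the 30000 regions in the list from the pooled replicates, 22 in the replicate 1 list and 26 in the replicate 2 list. By its label the pooled list holds peaks and background together, so a listed region need not be a peak. With the same windows, 84.0% of all protein-coding genes had a pooled region.

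HLH-4 is a basic helix-loop-helix transcription factor related to Achaete and Scute of the fly, and is best known in the worm for its role in ADL, a pair of chemosensory neurons. Its binding was mapped with ChIP-seq, in which chromatin is immunoprecipitated and its DNA sequenced, in 2 biological replicates of 1 group. These were whole hermaphrodite first-stage (L1) larvae of strain OP523, which carries unc-119(tm4063) on chromosome III and the integrated transgene wgIs523. The transgene adds GFP and FLAG to the C-terminus of HLH-4. An antibody against GFP was used, and larvae were taken 6 hours after release from starvation synchrony. The promoter and copy number of the transgene are not given in its labels. There was no second genotype or treatment, so the comparisons are between genes and between lists. The peak lists hold no expression values, so cell-type markers could not be checked. In chromatin from whole animals, binding in a few cells and weaker binding in many cannot be told apart. Each region carries the authors' signal value, which was used to rank regions within 1 list. The authors' optimal set, the peaks that passed their test of reproducibility, held 545 peaks, which were also the 545 strongest regions of the pooled list. Read depth is unknown.

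TRPV channels are cation channels of the transient receptor potential family. In the worm, OSM-9 and OCR-2 work together in the cilia of sensory neurons such as ASH, ADL and AWA, where they carry responses to odours, osmotic shock, touch and noxious chemicals. OSM-9 is made in more cell types than any single OCR protein is known to be, and OCR-2 is needed for OSM-9 to reach the cilium in some of them. OCR-1 is found in AWA and ADL, OCR-4 in the mechanosensory OLQ neurons, and OCR-3 in the rectal gland. Achaete-Scute factors bind E-boxes together with an E-protein partner. The E-boxes counted here were the palindrome CAGCTG and the site CACCTG, which reads CAGGTG on the opposite strand. A region was said to have an E-box at the summit when the whole site lay within 50 bp of it.

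The sequence just upstream of osm-9 is shown first, because it holds the only optimal peak among the 5 genes. It is given 5′ to 3′ on the strand of the gene (minus), ending at the base before the gene start, for chrIV:3557432-3557731 of ce11 (WBcel235). Capitals mark the E-box, which reads CAGGTG on this strand.
osm-9: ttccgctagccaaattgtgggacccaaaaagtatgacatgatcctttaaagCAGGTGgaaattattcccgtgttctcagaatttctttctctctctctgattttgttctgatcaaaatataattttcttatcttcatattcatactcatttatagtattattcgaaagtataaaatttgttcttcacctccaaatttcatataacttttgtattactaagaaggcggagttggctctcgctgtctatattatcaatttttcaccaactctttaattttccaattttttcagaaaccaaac

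The ocr sites to set beside it are E-boxes of 2 kinds: those with a summit of any list within 50 bp, and those within 500 bp upstream of a start with no such summit. Each is shown with 20 bases either side on the strand of its gene, E-box in capitals. The first is intergenic upstream of ocr-1, the second lies in an intron of ocr-1, the third in a coding exon of ocr-1 and the fourth in an intron of ocr-2. The last 2 are intergenic, 401 to 406 bases upstream of ocr-2 and 151 to 156 bases upstream of ocr-3.
ocr-1 at chrV:10762976-10763021, plus strand: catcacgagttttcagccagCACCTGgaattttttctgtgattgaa
ocr-1 at chrV:10764809-10764854, plus strand: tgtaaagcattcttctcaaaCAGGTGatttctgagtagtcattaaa
ocr-1 at chrV:10768037-10768082, plus strand: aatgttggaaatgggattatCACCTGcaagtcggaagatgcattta
ocr-2 at chrIV:8219031-8219076, minus strand: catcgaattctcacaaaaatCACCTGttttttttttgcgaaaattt
ocr-2 at chrIV:8220468-8220513, minus strand: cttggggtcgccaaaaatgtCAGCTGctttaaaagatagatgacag
ocr-3 at chrX:15168548-15168593, plus strand: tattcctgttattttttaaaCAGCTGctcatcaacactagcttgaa

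The osm-9 promoter carried an optimal peak that was present in every list. The gene (WBGene00003889) lies at chrIV:3551090-3557431 on the minus strand. In the pooled list the peak spanned chrIV:3557494-3557823, with an intergenic summit 228 bp upstream of the start and a signal value of 50.3. It ranked 420 of the 30000 pooled regions, so 125 of the 545 optimal peaks were weaker. Optimal peaks ran from a signal value of 43.1 to 379.5, with a median of 65.4, which places osm-9 in the lower part of the set. The overlapping region ranked 299 in replicate 1, with a signal value of 27.6 and its summit 284 bp upstream. In replicate 2 it ranked 836, with a signal value of 22.6 and its summit 240 bp upstream. Replicate 1 thus ranked it higher, and both replicates put the summit a little farther upstream than the pooled list did. The deposited q-values, as −log10, were 1.65 pooled, 1.82 in replicate 1 and 0.990 in replicate 2. At the strongest pooled ocr region, which was at ocr-1, the value was 0.464, and at the single pooled ocr-3 region it was 0.120.

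The E-box in the osm-9 promoter occupied bases 244 to 249 upstream of the start. Its nearest base was 16 bp from the pooled summit, 35 bp from the replicate 1 summit and 4 bp from the replicate 2 summit. It was the only E-box in the 330 bp of the pooled region. Of the 545 optimal peaks, 271 (49.7%) had such an E-box within 50 bp of the summit. The osm-9 peak was 1 of 73 optimal peaks that held one and also had their nearest protein-coding start 0 to 500 bp downstream of the summit. The next protein-coding start beyond the peak was that of sre-5, a chemoreceptor gene that points away from osm-9, 7542 bp from the summit.

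**Figure D1:**
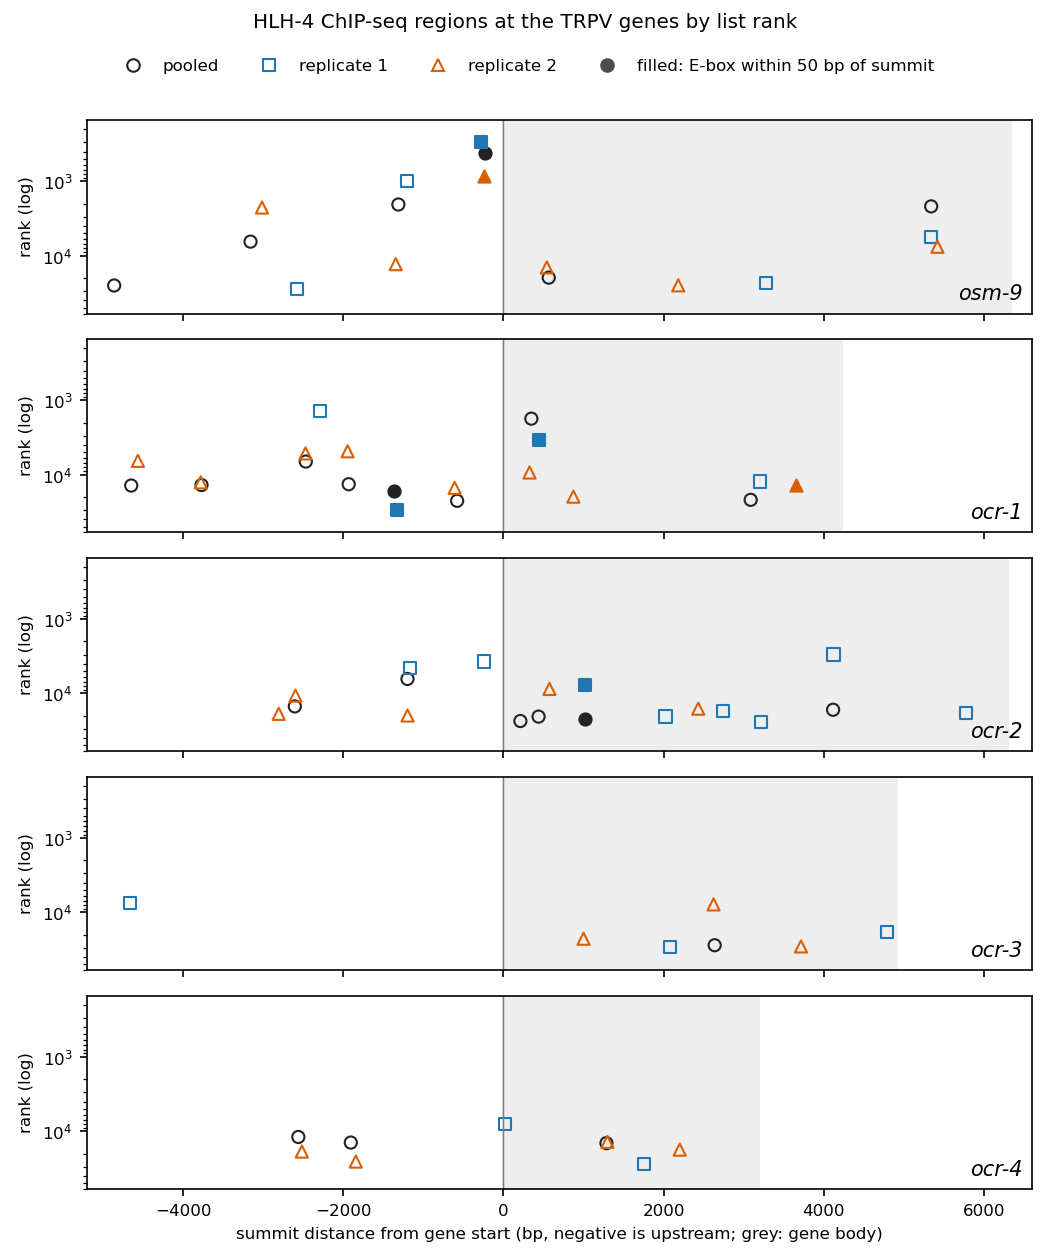
Rank (log axis, strongest at the top) of each region in the 3 lists against the distance of its summit from the gene start in bp, 1 panel per gene; the gene body is grey, and filled symbols have an E-box within 50 bp of the summit. At osm-9 the filled symbols of all 3 lists stand together just upstream of the start, at ranks 299, 420 and 836, whereas no ocr gene has a filled symbol in all 3 lists at 1 place.

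No ocr gene had an optimal peak. With the same windows, 888 of the 19973 protein-coding genes (4.45%) had at least 1, so 1 of the 5 TRPV genes is set against that share. The windows of the 5 genes were 8185 to 11342 bp long and the median over all protein-coding genes was 7027 bp, and a longer window can hold more regions. The strongest ocr region in each list was at ocr-1, but at a different place each time. Its summit was 348 bp downstream of the start in the pooled list. In replicates 1 and 2 it was 2295 and 1947 bp upstream, in an intron of sre-6. In the pooled list the signal value of osm-9 was 1.85 times that of ocr-1 (50.3 and 27.2). It was 1.68 times in replicate 1 (27.6 and 16.4) and 1.54 times in replicate 2 (22.6 and 14.7), a mean ratio of 1.61 ± 0.101 (SD, n = 2). The ratio was above 1 in both replicates. Because the ocr-1 regions differ, the mean and SD do not describe the spread of 1 pair of regions. One gene set against 4 in 2 libraries gives no test, and none was made.

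The order of the genes was described by the share of all protein-coding genes that had a stronger region in their own window. For osm-9 this share was 2.48% in replicate 1 and 6.41% in replicate 2, with 3.44% in the pooled list. For ocr-1 it was 10.5% and 29.8%, with 12.7% pooled. For ocr-2 it was 20.8% and 45.8%, with 36.2% pooled. The ranges of ocr-1 and ocr-2 over the replicates overlapped, while that of osm-9 overlapped with no ocr gene. The shares at ocr-4 were 45.1% and 61.4%, with 55.7% pooled. At ocr-3 they were 42.7% in each replicate and 82.3% in the pooled list. The strongest ocr-3 regions of the replicates lay at different places, and only that of replicate 2 overlapped a pooled region. The order among ocr-2, ocr-3 and ocr-4 was not the same in the 3 lists.

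**Figure D2:**
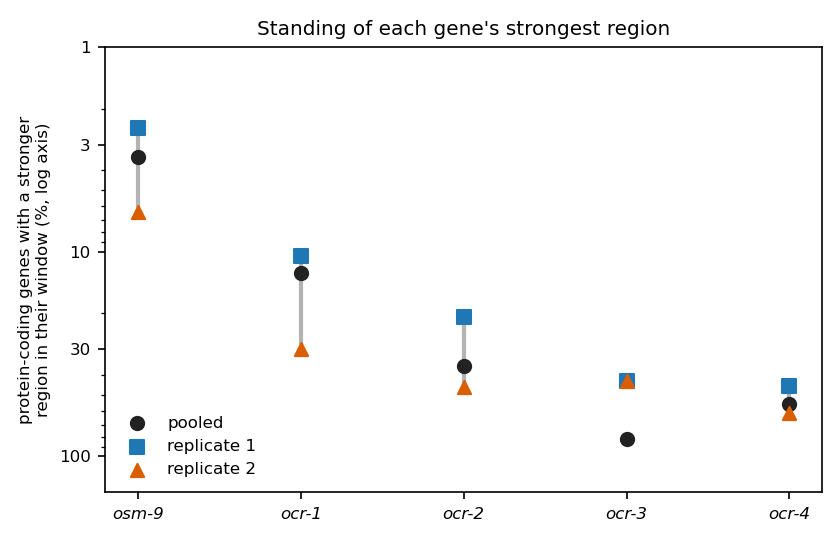
Share of protein-coding genes (%, log axis, fewest at the top) whose window held a stronger region than the strongest one at each TRPV gene, for each list; grey lines join the 2 replicates. The osm-9 values, 2.48% to 6.41%, lie above those of every ocr gene in the plot, and the lines of ocr-1 and ocr-2 overlap.

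The osm-9 window held further, weaker regions on which the replicates differed. A region in the upstream intergenic sequence, with its pooled summit 1313 bp from the start and rank 2051, ranked 986 in replicate 1 and 12992 in replicate 2. Another, 3159 bp upstream at pooled rank 6472, ranked 2251 in replicate 2 and had no counterpart in replicate 1. Neither had an E-box within 50 bp of the summit. Inside the gene, an intronic region 5341 bp downstream of the start was found in all lists, at ranks 2173 pooled, 5545 in replicate 1 and 7578 in replicate 2. It overlapped a tRNA gene and the non-coding RNA gene B0212.7, both inside the same intron, in the pooled and replicate 1 lists, and B0212.7 alone in replicate 2. The part of these genes in that region was not tested. The other pooled regions at osm-9 ranked 19726 and 25147.

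The strongest regions at ocr-1 were at different places in the 3 lists. The gene (WBGene00003838, chrV:10764366-10768590, plus strand) had its strongest pooled region in an intron, at chrV:10764549-10764878, with the summit 348 bp downstream of the start, a signal value of 27.2 and rank 1772. The overlapping regions ranked 3387 in replicate 1, with a signal value of 13.6, and 9376 in replicate 2, with a signal value of 12.4. An E-box occupied bases 463 to 468 downstream of the start, within all 3 regions. It was within 50 bp of the summit in replicate 1 only, where the summit lay 447 bp downstream. The strongest region of replicate 1 was instead 2295 bp upstream (rank 1411, signal value 16.4), and that of replicate 2 was 1947 bp upstream (rank 4864, signal value 14.7). Both of these summits lay in an intron of sre-6, a chemoreceptor gene whose start is 1571 bp from that of ocr-1 on the opposite strand. A window that reaches 5000 bp upstream of ocr-1 therefore takes in the whole of sre-6, which had no optimal peak either. The replicate 1 region 2295 bp upstream was not without a counterpart. It overlapped a replicate 2 region with its summit 2473 bp upstream, at rank 5200 with a signal value of 14.5. It also overlapped the pooled region at rank 6685, in each case by less than 50% of either region.

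A weak E-box region lay between ocr-1 and sre-6. Its pooled summit was 1363 bp upstream of ocr-1 and 208 bp upstream of sre-6, with a CACCTG site 2 bp from it. Its pooled rank was 16804. Replicate 1 had it at 29519, close to the end of the list, and it had no counterpart in replicate 2. The osm-9 peak lay 228 bp from its gene start with a signal value of 50.3, whereas this region lay 208 bp from the sre-6 start with a signal value of 15.3.

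At ocr-2, whose product partners OSM-9 in ADL and ASH, 4 of the 6 pooled regions overlapped a region of 1 replicate only. The gene (WBGene00003839) lies at chrIV:8213788-8220087 on the minus strand. Its strongest pooled region, 1199 bp upstream in intergenic sequence, ranked 6383 with a signal value of 20.2. Replicate 1 had it at rank 4572 and replicate 2 at rank 19789. The strongest region of each replicate lay elsewhere, in introns of ocr-2. That of replicate 1 was 4121 bp downstream of the start, at rank 2993 with a signal value of 13.95, and overlapped the pooled region at rank 16572. That of replicate 2 was 574 bp downstream, at rank 8699 with a signal value of 12.6, and overlapped the pooled region at rank 20478. Neither had a counterpart in the other replicate. The E-box region of ocr-2 was intronic, 1024 bp downstream of the start. There the pooled and replicate 1 summits fell on the same base, 7 bp from a CACCTG site, at ranks 22126 and 7683, and replicate 2 had no region. Replicate 1 alone had a region 246 bp upstream of the start, near the distance of the osm-9 peak, at rank 3714 and with a signal value of 13.3. The nearest E-box to that summit was 155 bp away, inside the region. The window of ocr-2 also takes in the start of gpx-6, a glutathione peroxidase gene, and the pooled region at rank 14932 lay in an intron of gpx-6.

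**Figure D3:**
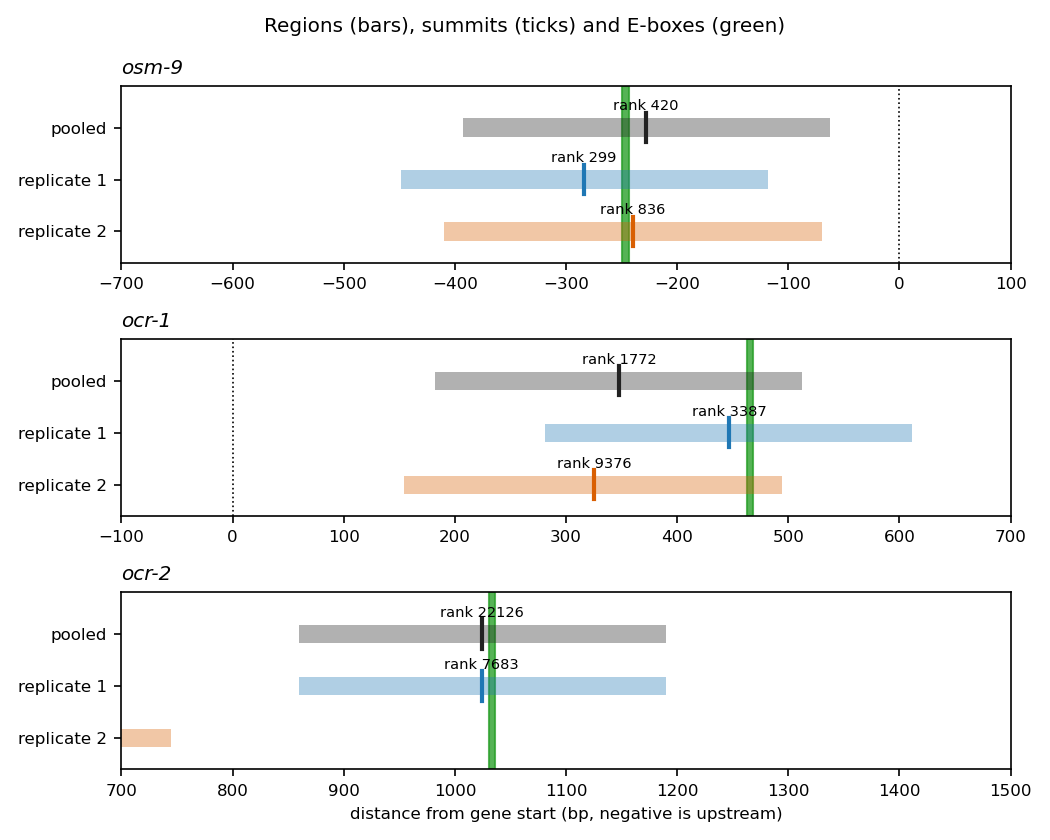
Regions (bars), summits (ticks, with ranks) and E-boxes (green) of the 3 lists, against distance from the gene start in bp, for osm-9, ocr-1 and ocr-2. At osm-9 the summits of all 3 lists lie within 35 bp of the E-box, at the ocr-1 intronic E-box, at 463 to 468 bp, only the summit of replicate 1 is within 50 bp, and at ocr-2 replicate 2 has no region at the E-box.

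In the pooled list the strongest regions of ocr-4 and ocr-3 were weaker than those of the other members. At ocr-4 (WBGene00003841, chrIV:7329611-7332795, minus strand) there were 3 pooled regions, at ranks 11958, 14216 and 14484. Each of the 3 had a counterpart in replicate 2 and none in replicate 1. The 2 upstream ones lay inside daf-42, the next gene. Replicate 1 had its strongest ocr-4 region 24 bp downstream of the start, in the 5′ UTR, at rank 8102. At ocr-3 (WBGene00003840, chrX:15168724-15173636, plus strand) the single pooled region was intronic, 2637 bp downstream of the start, and ranked 27688 with a signal value of 12.5, where the list ended at 12.1. The overlapping region of replicate 2 ranked 7832 with a signal value of 13.0. In replicate 1 the strongest ocr-3 region lay 4659 bp upstream of the start, in an intron of T10B10.8, at rank 7508 with a signal value of 11.2. No pooled region lay in the 5000 bp upstream of ocr-3. No region of any list at ocr-3 or ocr-4 had an E-box within 50 bp of its summit.

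Of the 24 pooled regions at the 5 genes, 6 overlapped a region of both replicates. They were 3 of 6 at osm-9 and 3 of 18 at the ocr genes, of which 2 were at ocr-1 and 1 at ocr-2. Over all 30000 pooled regions the share was 31.4%. A further 12 of the 24 had a counterpart in replicate 2 only, 4 in replicate 1 only and 2 in neither, against 32.3%, 26.4% and 9.93% of all pooled regions. In the pooled list regions were denser at 4 of these 5 genes than at the median gene. It had 0.529 per 1000 bp of window at osm-9, 0.867 at ocr-1, 0.531 at ocr-2, 0.101 at ocr-3 and 0.367 at ocr-4. The median over all protein-coding genes was 0.287, with quartiles of 0.144 and 0.451, so ocr-4 lay within the quartiles. The order changed with the list. In replicate 1, ocr-4 (0.244) was below and ocr-3 (0.303) above the median of 0.292.

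An E-box at the summit was found in 3 of the 24 pooled regions, 1 each at osm-9, ocr-1 and ocr-2. In replicate 1 it was 4 of 22 and in replicate 2 it was 2 of 26. Over all regions the shares were 6.28% in the pooled list, 6.00% in replicate 1 and 5.92% in replicate 2. Counted by gene, 3 of the 5 members had a pooled region with an E-box at the summit, and so had 13.3% of all protein-coding genes.

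E-boxes were more common in these windows than summits on them. The osm-9 window held 7, or 0.617 per 1000 bp, and the ocr windows together held 24. The single gene with the most was ocr-4, with 12, or 1.47 per 1000 bp, where the median over protein-coding genes was 0.454. Of these 12, 10 lay upstream, within daf-42. None had a summit of any list in reach, meaning close enough for the whole site to lie within 50 bp of the summit. At osm-9, 1 of 7 E-boxes had a summit in reach and had one in all 3 lists. At the ocr genes 4 of 24 had a summit of at least 1 list in reach, 2 had a pooled one, and none had one in all 3 lists. Of the 46600 such E-boxes on the 6 chromosomes, 4.35% had a pooled summit in reach and 0.948% had one in all 3 lists. Among the 4197 with all bases within 500 bp upstream of a protein-coding start, the share with a summit of all 3 lists was 2.5%. The E-box upstream of osm-9 was of that kind. The sites shown above at bases 401 to 406 upstream of ocr-2 and 151 to 156 upstream of ocr-3 were alike in position. Both read CAGCTG, whereas the osm-9 site was CACCTG, and no list had a summit in reach of either. The ocr-2 site did lie inside the replicate 1 region at rank 3714.

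**Figure D4:**
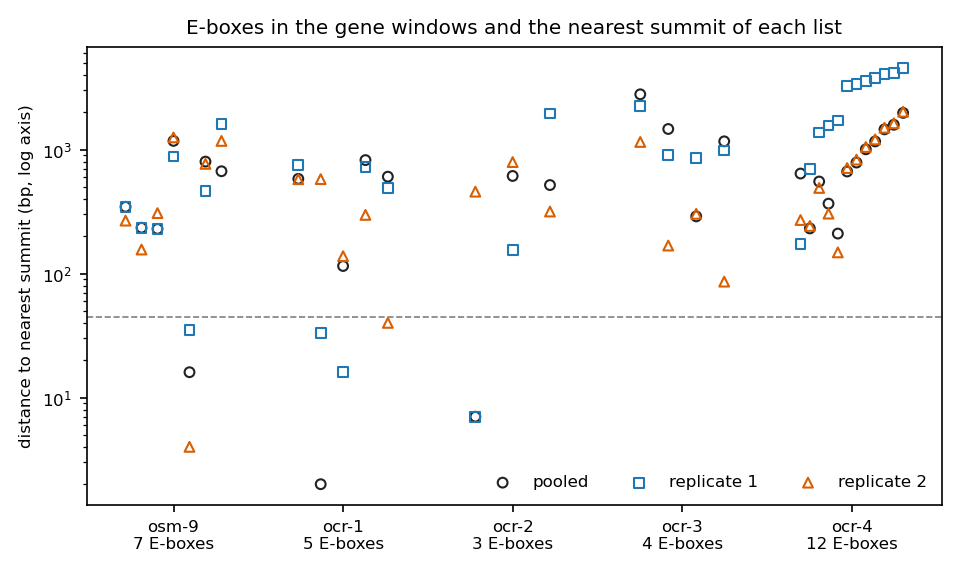
Distance in bp (log axis) from each E-box in the window of a gene to the nearest summit in each list, with E-boxes in chromosome order within a gene; below the dashed line at 45 bp the whole E-box lies within 50 bp of the summit. At osm-9 all 3 lists fall below the line for the same E-box, at 4, 16 and 35 bp, which is seen at no ocr gene, and all points of ocr-3 and ocr-4 lie above it.

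The osm-9 E-box did not have the flanking bases most common at optimal peaks. Read in the CACCTG orientation, the osm-9 site with 1 base either side was CCACCTGC. This form lay within 50 bp of the summit in 14 optimal peaks (2.57%) and in 0.251% of the other pooled regions. It was sixth in number among the 25 forms found at optimal peaks. The sites in the ocr-2 intron and the ocr-1 intron were TCACCTGT, in 10.1% of optimal peaks, and that in the ocr-1 coding exon was TCACCTGC, the commonest, in 10.6%. The site between ocr-1 and sre-6 was GCACCTGG, in 1.28% of optimal peaks. The commonest forms therefore occurred at ocr regions, and the strongest region of the 5 genes had a less common form. These 2 commonest forms were also more frequent in the other pooled regions, at 0.513% and 0.455%. The coding-exon site of ocr-1 had a summit in reach in replicate 2 only, at rank 13688, where the other lists had no region. The intron site of ocr-1 had one in replicate 1 only.

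The genes most like osm-9 were taken as those on the 2 pooled regions just above and the 2 just below its peak in order of signal value, and were then compared over the replicates. Just above it, the region at rank 418 lay in an intron of C30F2.2 and in the windows of idpp-14 and C30F2.4, with ranks of 298 in replicate 1 and 806 in replicate 2 and with an E-box at the summit. The region at rank 419 lay in a coding exon of pmk-3, a p38-type kinase gene, and in the window of pmk-2, with ranks of 426 and 682 in replicates 1 and 2 and no E-box. Just below it, the region at rank 421 lay 4787 bp upstream of nfki-1, with ranks of 1027 and 324 and an E-box. The region at rank 422 lay at the start of F26F4.9 and in the windows of cee-1 and F26F4.12, with ranks of 588 and 289 and no E-box. Of these 4 regions, the one at pooled rank 418 was nearest to osm-9 in rank within both replicates, though those at 419 and 421 were nearer in the pooled list.

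Genes of related function were looked up in 3 lists. No optimal peak lay in the windows of 13 other TRP channel genes or of 6 cyclic nucleotide-gated channel genes, which include tax-2 and tax-4, the channel subunits used by several other sensory neurons. The share over all protein-coding genes was 4.45%, so an absence from so few genes says little about these families. The strongest pooled rank was 2177 among the TRP genes, at gtl-2, and 4185 among the gated channels, at cng-3. Replicates 1 and 2 ranked the gtl-2 region 28149 and 1094, and the cng-3 region 14682 and 1319. The median rank of the strongest region was 7440 and 6156 in these lists, and 7787 over all protein-coding genes with a region. The median windows were 13540 and 10200 bp, against 7027 bp over all protein-coding genes, and a longer window can hold more regions.

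Of 20 genes listed as related to TRPV signalling in sensory neurons, 3 had an optimal peak, beside the 4.45% of all genes. A pooled region ranked 1000 or better was found at 5 of the 20, beside 7.65%. The list, which also holds chemoreceptor genes, was chosen with earlier results of these data known. The optimal peaks were at gpa-3, pkc-1 and arr-1, and each had an E-box at the summit. gpa-3, a G protein alpha subunit of chemosensory neurons, had an intronic peak 796 bp downstream of its start, with a signal value of 79.7 and ranks of 173 pooled, 223 in replicate 1 and 165 in replicate 2. pkc-1, a protein kinase C gene, had an intronic peak 957 bp downstream of its start, with a signal value of 72.3 and ranks of 210, 230 and 250. Both were stronger than the osm-9 peak in all 3 lists. arr-1, the arrestin gene, took its peak from an intron of sms-2, 2648 bp upstream, with a signal value of 44.6 and ranks of 513, 626 and 556. The regions of the 2 others, the G protein genes gpa-11 and odr-3, were not optimal and had no E-box. That of gpa-11 ranked 833 pooled, 3242 in replicate 1 and 1137 in replicate 2, and lay in the 3′ UTR of another gene, C16A11.2. That of odr-3, 3500 bp upstream, ranked 986 pooled, 4894 in replicate 1 and 284 in replicate 2. The median rank of the strongest region over the list was 8345, against 7787 over all genes with a region. The median window of the list was 8204 bp.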

How the data were processed

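Per the file descriptions that accompany the data, the authors derived a list from each replicate's alignments and another from both replicates pooled, with a control in each case, and took the optimal peaks from these lists. The control is not analysed here. No source used here gives the aligner, the peak caller, their versions or the number of reads. The deposited signal value of each region has no stated normalization and was compared only within 1 list. The deposited −log10 q-value of a region is printed but selects nothing. Summits were read from the offset that the authors' files give, and counted from 1. Lists on ce10 were not used here.

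Regions were ranked by signal value in Python 3.11.15 with pandas 2.3.3. Genes came from Ensembl release 115 on WBcel235 and sequence from RefSeq's genome of the same build. Windows were the gene body and 5000 bp upstream, E-boxes on either strand were sought in the 101 bp centred on a summit, and regions of different lists were paired when they overlapped by at least 1 bp. The same rule was applied to every protein-coding gene. No test across samples was possible with 1 group of 2 replicates, and no p-value is given.

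The members and lists were chosen with earlier results of these data known. The rule for names took the 5 members, genes on 2 regions above and 2 below osm-9 in order of signal value, and genes of 3 related lists with an optimal peak or a pooled rank of 1000 or better; the leading gene of a list without any, and neighbouring genes, were named after their values were seen.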

Additional observations from a re-analysis of the deposited data

How the results depend on the processing

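RefSeq gene spans, identical for the 5 members, changed no member's value. With the gene body only, the signal value of osm-9 fell below that of the strongest ocr gene (ratio 0.952), since the osm-9 peak is upstream: osm-9 then ranked 2173 and ocr-2 16572, regions numbered 2 at osm-9, 2 at ocr-1 and 1 at ocr-4, no osm-9 or ocr-1 region had an E-box (0), and 0.896% of protein-coding genes and no member had an optimal peak. With 2000 bp upstream osm-9 kept its peak, ocr-1 had 5 regions and the share of genes was 2.88%. The upper 272 optimal peaks left 2.28% of genes and no member. Over the whole region rather than 50 bp, ocr-1 had 2 E-box regions. Leaving out each replicate gave, for the strongest region, ranks of 299 to 836 at osm-9, 1411 to 4864 at ocr-1, 2993 to 8699 at ocr-2, 7508 to 7832 at ocr-3 and 8102 to 13921 at ocr-4. The ratio was 1.54 to 1.68. Regions numbered 4 to 8 at ocr-1 and 3 at ocr-3 with either, and E-box regions 1 to 2 at ocr-1 and 0 to 1 at ocr-2. Requiring an overlap of 50% of each region left the osm-9 ranks at 299 and 836. At ocr-1, the pooled region at rank 6685 then lost its replicate 1 counterpart, at rank 1411, and kept that of replicate 2. Fewer than the 3 of 18 pooled ocr regions given above then overlapped both replicates. No paired analysis was possible because the libraries form 1 group. Depth is unknown, so a region missing from 1 list of fixed length is not shown to lack binding.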
